A study of Homo sapiens with 6 samples.

Results

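The genes described here are the machinery of RNA polymerases I and III: the subunits of both enzymes, the factors that bring them to their promoters, and a few of the RNAs that polymerase III makes. A list of 48 gene symbols was matched to the 60564 gene rows of the count table, and all 48 were found: 43 protein genes and 5 genes of short RNAs. Proteins and short RNAs are kept apart throughout. The measurement was RNA-seq of A2780, an established line of human ovarian cancer cells, with 3 GPT2si and 3 GPT2sinc libraries. All 6 libraries come from the same line, and no other treatment, time or clone is named for either group. GPT2 is the mitochondrial alanine aminotransferase. The title of the series speaks of a deficiency of this enzyme, while the labels spell out neither si nor sinc, nor whether replicate libraries stem from separate cultures. The p-values below therefore measure only the spread between these samples, and that spread may be technical. In bulk RNA, a change in every cell and a change in the share of cells that make an RNA cannot be told apart.

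Polymerase I transcribes a single kind of gene, the ribosomal RNA repeat, and its product is cut into 18S, 5.8S and 28S rRNA. Polymerase III makes small stable RNAs: 5S rRNA, tRNAs, U6, and the RNA parts of the signal recognition particle, of RNase P, of RNase MRP and of the 7SK particle. Growing cells, cancer cells among them, keep both enzymes busy because ribosomes and tRNAs limit protein synthesis.

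GPT2 itself was lower with GPT2si. It had 10807, 10683 and 9516 counts in GPT2sinc 1 to 3 and 4714, 3677 and 4416 in GPT2si 1 to 3, a log2 fold change of −1.26 with an SE of 0.08 (Benjamini-Hochberg adjusted p = 0.000393, quasi-likelihood test of edgeR). Libraries held 41931162 to 50882329 counts, so that 3 counts equal 0.0597 to 0.077 CPM (counts divided by library size, which is scaled by TMM factors here and below). Of the 17006 genes tested, 241 were called (1.42%), 98 higher (0.576%) and 143 lower (0.841%), a call being an adjusted p under 0.05. Among epithelial and ovarian cancer markers, KRT8 had 1347 to 1858 counts and KRT18 1049 to 1569, EPCAM had 62 to 103, and KRT7 and WT1 were at 0. KRT19 had 6 to 24, CDH1 5 to 22, PAX8 4 to 16 and MUC16 0 to 3. Markers of endothelial cells (PECAM1, VWF, CDH5) had at most 8 counts. Of immune markers, CD3E of T cells had none, PTPRC had 0 to 6, CD14 0 to 2 and CD68 170 to 316. Of fibroblast markers, the collagen genes COL1A2 and COL1A1 had 10229 to 12978 and 5121 to 6191, and PDGFRA had 4786 to 7959. DCN had 142 to 217 and LUM 4 to 16. GPT2si 2 stood apart from the other libraries of its group: the chi-square per degree of freedom over genes was 37.9 and 46.3 against GPT2si 1 and GPT2si 3, which differed from each other by 7.71. Results that rest on single libraries are given below with and without them.

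The 5 short RNAs are described first, because they differed most between the groups and because their sequence bears on how they can be counted. None of them carries a poly(A) tail in its mature form, whereas the libraries were made, per the labels' protocols, from RNA caught on oligo(dT) beads. The sequences of 3 of them are the transcripts of GENCODE 29 on GRCh38, 5′ to 3′ in DNA letters. Capitals mark the longest run of A, or the first of several equally long ones. Of RN7SK and RPPH1 the first 300 bases are shown.
RN7SK: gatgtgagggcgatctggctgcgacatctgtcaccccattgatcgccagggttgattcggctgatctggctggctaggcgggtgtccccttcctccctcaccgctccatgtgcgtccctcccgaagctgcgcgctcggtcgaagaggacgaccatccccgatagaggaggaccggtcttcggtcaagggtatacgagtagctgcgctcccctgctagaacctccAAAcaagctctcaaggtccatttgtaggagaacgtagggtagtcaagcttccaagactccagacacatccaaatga
RMRP: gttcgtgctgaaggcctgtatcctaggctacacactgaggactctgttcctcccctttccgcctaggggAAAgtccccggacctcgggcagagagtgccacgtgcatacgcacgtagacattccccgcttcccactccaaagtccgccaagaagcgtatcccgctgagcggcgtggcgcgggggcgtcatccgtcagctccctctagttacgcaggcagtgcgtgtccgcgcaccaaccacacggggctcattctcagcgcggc
RPPH1: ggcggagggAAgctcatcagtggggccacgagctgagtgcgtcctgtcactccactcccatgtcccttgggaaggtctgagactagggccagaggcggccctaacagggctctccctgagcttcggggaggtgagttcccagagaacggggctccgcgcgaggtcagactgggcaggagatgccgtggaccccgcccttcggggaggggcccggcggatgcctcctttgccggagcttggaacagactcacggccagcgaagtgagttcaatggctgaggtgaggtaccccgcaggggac
RN7SL1 and RN7SL2, both on chromosome 14, encode the RNA of the signal recognition particle, and they differ at 4 of 299 aligned positions (98.7% identity), with 1 extra base at the end of RN7SL2. Their longest identical stretch runs over 205 bases, and a read inside that stretch matches both genes. RN7SK (chr6:52995621-52995948, plus strand) holds the transcription elongation factor P-TEFb in an inactive particle. RMRP (chr9:35657754-35658017, minus strand) is the RNA of RNase MRP, which cuts precursor ribosomal RNA. RPPH1 (chr14:20343075-20343407, minus strand) is the RNA of RNase P, which trims precursor tRNAs. The longest run of A was 4 bases in RN7SL1 and RN7SL2, 3 in RN7SK and RMRP, and 2 in RPPH1.

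Each of the 5 short RNAs had more counts in every GPT2si library than in any GPT2sinc library. RN7SL1 had 11, 22 and 32 counts in GPT2sinc 1 to 3 and 92, 118 and 108 in GPT2si 1 to 3. RN7SK had 11, 10 and 14 against 46, 74 and 69. RN7SL2 had 1, 2 and 6 against 29, 29 and 34. These are low numbers of reads for RNAs that belong to the most abundant in a cell. RMRP had 2, 3 and 4 counts against 20, 23 and 12, and RPPH1 had 3, 5 and 2 against 24, 11 and 12. In none of the 5 did the groups overlap (14.9% of all tested genes were higher without overlap), but for RN7SL2, RMRP and RPPH1 the low-count filter described next fixed this, so nothing is read from the comparison.

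The 7SL and 7SK genes passed the test. RN7SL1 went from 0.483 ± 0.248 to 2.41 ± 0.60 CPM (SD, n = 3 each), with a log2 fold change of 2.31 (SE 0.37; edgeR adjusted p = 0.025). RN7SK went from 0.259 ± 0.0558 to 1.44 ± 0.496 CPM (2.46, SE 0.37; edgeR adjusted p = 0.0219). RN7SL2 went from 0.0676 ± 0.0618 to 0.689 ± 0.0973 CPM (3.32, SE 0.55; edgeR adjusted p = 0.0275). The RNA of RNase MRP and that of RNase P did not pass: RMRP had a log2 fold change of 2.59 (SE 0.55; edgeR adjusted p = 0.0586) and RPPH1 of 2.19 (SE 0.54; edgeR adjusted p = 0.083). By pooled counts per scaled library size, GPT2si exceeded GPT2sinc by a factor of 4.93 for RN7SL1 (95% exact interval 3.77 to 6.54), 5.44 for RN7SK (3.78 to 8.05), 10.3 for RN7SL2 (5.20 to 23.2), 6.16 for RMRP (3.02 to 14.2) and 4.74 for RPPH1 (2.36 to 10.5). These intervals cover counting error only. RN7SL2, RMRP and RPPH1 passed the low-count filter, which lay at 0.225 CPM, only through the GPT2si libraries: 0 of 3 GPT2sinc libraries reached it. A gene that enters the test in this way has to be higher with GPT2si. The number of short RNAs called (3 of 5, against 0.576% of all genes called higher) therefore supports nothing about the group. RN7SK reached the filter in 2 of 3 GPT2sinc libraries and so needed GPT2si libraries in part, which limits its test too. Only RN7SL1 reached it in all 3 GPT2sinc libraries.

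**Figure D1:**
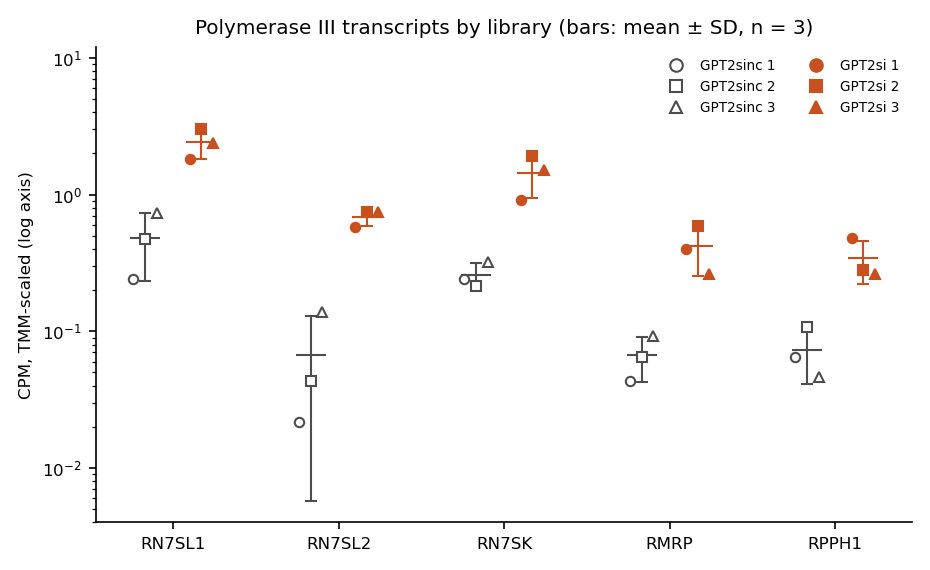
Level of the 5 short polymerase III transcripts in each library, in CPM on a log axis. Points are libraries, with GPT2sinc open and GPT2si filled, and bars give the mean ± SD of 3 libraries. In each RNA the lowest GPT2si library lies above the highest GPT2sinc library. For RN7SL2, RMRP and RPPH1 the low-count filter fixed this.

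Leaving out 1 library ended most of these calls. RN7SL1 kept an adjusted p under 0.05 without GPT2si 2 (0.0267) and without GPT2si 3 (0.0456), as did RN7SK (0.0219 and 0.0456, edgeR). Without GPT2sinc 1, 2 or 3 or GPT2si 1 the adjusted p of RN7SL1 was 0.102, 0.144, 0.0542 and 0.0785, and that of RN7SK was 0.11, 0.141, 0.072 and 0.0647. For RN7SL2 the edgeR adjusted p stayed under the threshold only without GPT2si 2 (0.0291). It was 0.126, 0.157, 0.0542 and 0.115 without GPT2sinc 1, 2 or 3 or GPT2si 1, and 0.0515 without GPT2si 3. RN7SL2 passed the low-count filter only through the GPT2si libraries, so nothing is read from its values. RN7SK needed these libraries in part. The log2 fold changes themselves stayed between 1.99 and 2.74 for RN7SL1, 2.20 and 2.71 for RN7SK and 2.90 and 4.29 for RN7SL2. All of these fits leave 1 group with 2 libraries.

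The genome holds many near-copies of the 7SL and 7SK genes, and counting can split reads among them. The count table has 678 rows of other 7SL copies, of which 106 had any count. Their summed level was 3.13 ± 0.493 CPM with GPT2sinc and 3.16 ± 0.273 CPM with GPT2si, and the groups overlapped. The 293 other 7SK copies summed to 0.752 ± 0.254 and 0.706 ± 0.17 CPM, and overlapped as well. The sums of the other copies thus overlapped between the groups, while the counts of RN7SL1 and RN7SK did not. Nothing is read here from RN7SL2, which passed the filter only through the GPT2si libraries. RN7SK needed these libraries in part to pass it, which limits its comparison as well. How reads were assigned among copies is not known, so the difference cannot be placed at single genes. When all copies were added to the named gene, an alternative chosen after the values were seen, the 7SL sum was 180, 149 and 170 counts in GPT2sinc 1 to 3 and 265, 272 and 297 in GPT2si 1 to 3 (log2 fold change 0.76; edgeR adjusted p = 0.0627). The 7SK sum was 57, 34 and 47 counts against 88, 94 and 104 (1.07; edgeR adjusted p = 0.075). Neither sum passed the test, and in both the groups did not overlap. In GENCODE 29, the exons of RN7SL1, RN7SK, RMRP and RPPH1 also lie wholly inside another gene on the same strand. Adding those rows changed no count of RMRP and gave RPPH1 3, 5 and 2 against 25, 12 and 12.

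Other RNA classes that lack a poly(A) tail or carry only a short one, set beside these after their values were seen, did not all differ in the same direction. The 5 short RNAs together went from 0.949 ± 0.363 to 5.30 ± 1.18 CPM as summed levels, a ratio of 5.58. This sum includes RN7SL2, RMRP and RPPH1, which passed the low-count filter only through the GPT2si libraries. Its ratio is therefore not compared with the others. The 4 copies of 5.8S rRNA, a product of polymerase I, summed to 375, 404 and 378 counts in GPT2sinc 1 to 3 and 640, 700 and 562 in GPT2si 1 to 3, or 8.52 ± 0.299 and 14.3 ± 3.14 CPM (ratio 1.68). Their groups did not overlap, and none of the 4 single copies passed the test (log2 fold changes 0.72 to 0.77; edgeR adjusted p = 0.0894 to 0.0978); the copies hold nearly the same counts in each library and are not separate measurements. Small nucleolar RNAs, which polymerase II makes, were at 12.2 ± 0.716 and 13.0 ± 1.28 CPM and overlapped, as did the related small Cajal body RNAs (0.754 ± 0.145 and 0.589 ± 0.0952 CPM). Replication-dependent histone mRNAs, which end in a stem-loop, were higher without overlap (185 ± 9.28 and 206 ± 2.17 CPM, ratio 1.12). The sum of 1899 rows annotated as small nuclear RNA, without RN7SK, was lower in each GPT2si library (3.69 ± 0.534 and 2.76 ± 0.171 CPM, ratio 0.749). Of these rows 207 had any count. The spliceosomal genes RNU1-1, RNU2-1, RNU4-1 and RNU5A-1 had at most 2 counts in any library, so the sum does not describe them. The pair of mitochondrial rRNAs was lower (6238 ± 601 and 4946 ± 141 CPM) and the 22 mitochondrial tRNAs were higher (249 ± 33.6 and 340.0 ± 44.1 CPM), both without overlap. How far carry-over of RNA without a tail through the selection, or degradation of RNA, differed between the libraries was not tested.

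**Figure D2:**
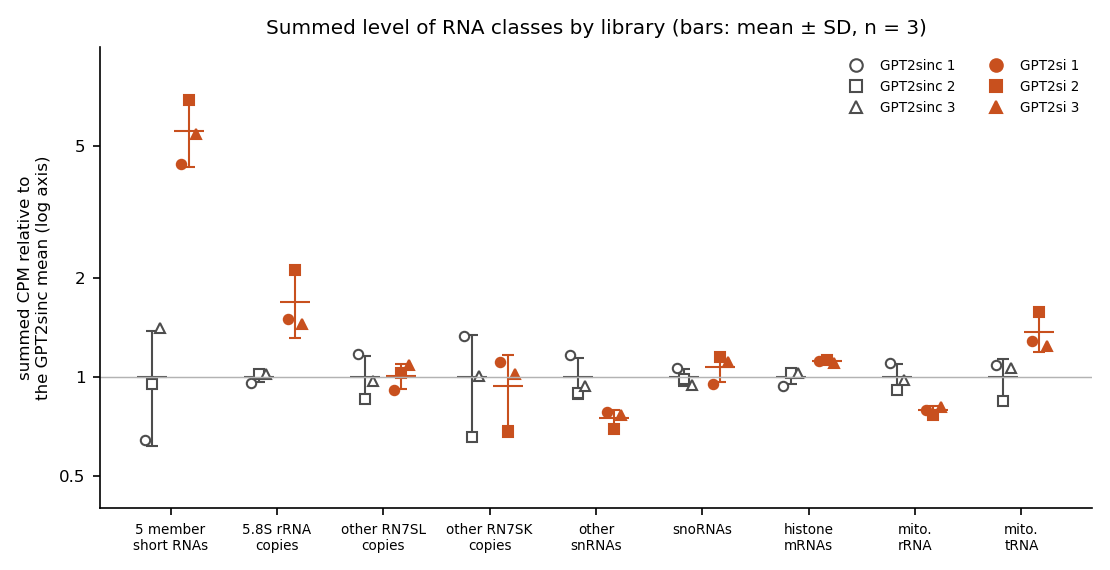
Summed CPM of RNA classes in each library, divided by the mean of the GPT2sinc libraries, on a log axis. Bars give the mean ± SD of 3 libraries. The 5.8S rRNA copies reach a ratio of 1.68, and the other copies of the 7SL and 7SK genes lie around 1. The ratio of the 5 short RNAs, 5.58, is not compared with these. It includes RN7SL2, RMRP and RPPH1, which passed the low-count filter only through the GPT2si libraries.

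Further polymerase III transcripts were almost unread. Of 18 symbols listed beside the 5, 17 were matched and 0 passed the low-count filter. BCYRN1, a brain cytoplasmic RNA with an internal run of A, had 5, 5 and 3 counts in GPT2sinc 1 to 3 and 8, 8 and 9 in GPT2si 1 to 3. RNU6-8, a U6 gene, had 13, 11 and 6 against 7, 5 and 6. RNU6-1, another U6 gene, had 1, 1 and 0 against 3, 2 and 2. RN7SL3 (2, 0 and 2), RNU6ATAC (3, 3 and 0) and VTRNA1-3 (0, 1 and 0) had counts in GPT2si libraries only, all at or under 3. In turn, VTRNA1-1 (3, 0 and 0) and RNU6-7 (0, 2 and 0) had counts in GPT2sinc libraries only. RNU6-2 had 1, 1 and 4 against 2, 2 and 0, and RNU6-9 had 0, 0 and 3 against 2, 0 and 0. The Y RNAs RNY1, RNY3 and RNY4 had 0 counts in each library, as did the 17 rows of 5S rRNA genes. Among 13 short RNAs that polymerase II makes without a tail, the test covered SNORD3A alone (the U3 RNA), which had 19, 26 and 5 counts against 17, 21 and 14 and a log2 fold change of 0.10 (SE 0.53). BCYRN1 and RNU6-1 were higher in each GPT2si library, and the groups overlapped in every other gene named here with counts.

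Among the 43 protein genes, all of which were tested, 2 were called higher with GPT2si (edgeR; 4.65%, against 0.576% of all genes) and 0 lower (against 0.841%). DESeq2 called 8 higher (18.6%, against 3.28% of all genes) and 1 lower (2.33%, against 2.87%), and limma-voom 1 higher (2.33%, against 0.388%) and 0 lower (against 0.635%). At an unadjusted p under 0.05, 14 were higher and 2 lower, where the shares of all tested genes were 10.3% and 9.27%. The fold change was positive in 34 of the 43 and in 48% of all tested genes. The median log2 fold change was 0.20, with a range from −0.74 to 0.66, and −0.01 over all tested genes. In 18 genes each GPT2si library was above each GPT2sinc library and in 2 each was below, against 14.9% and 13.2% of all tested genes. These shares of all tested genes are the background for the smaller groups of proteins below as well. The core subunits of RNA polymerase II, which transcribes protein genes, had a median close to that of the members: 0.18 over 7 genes, 0 of which were called by edgeR, DESeq2 or limma-voom and 1 of which had an unadjusted p under 0.05. The medians of the members in single libraries, relative to the mean of all 6, were −0.18, −0.08 and −0.04 in GPT2sinc 1 to 3 and 0.10, 0.13 and 0.08 in GPT2si 1 to 3. For the polymerase II core they were −0.26, −0.03 and 0.01 against 0.05, 0.27 and 0.00, which overlap. Of the 7 core genes, 6 had a positive fold change, 3 were higher without overlap and 0 were lower without overlap.

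**Figure D3:**
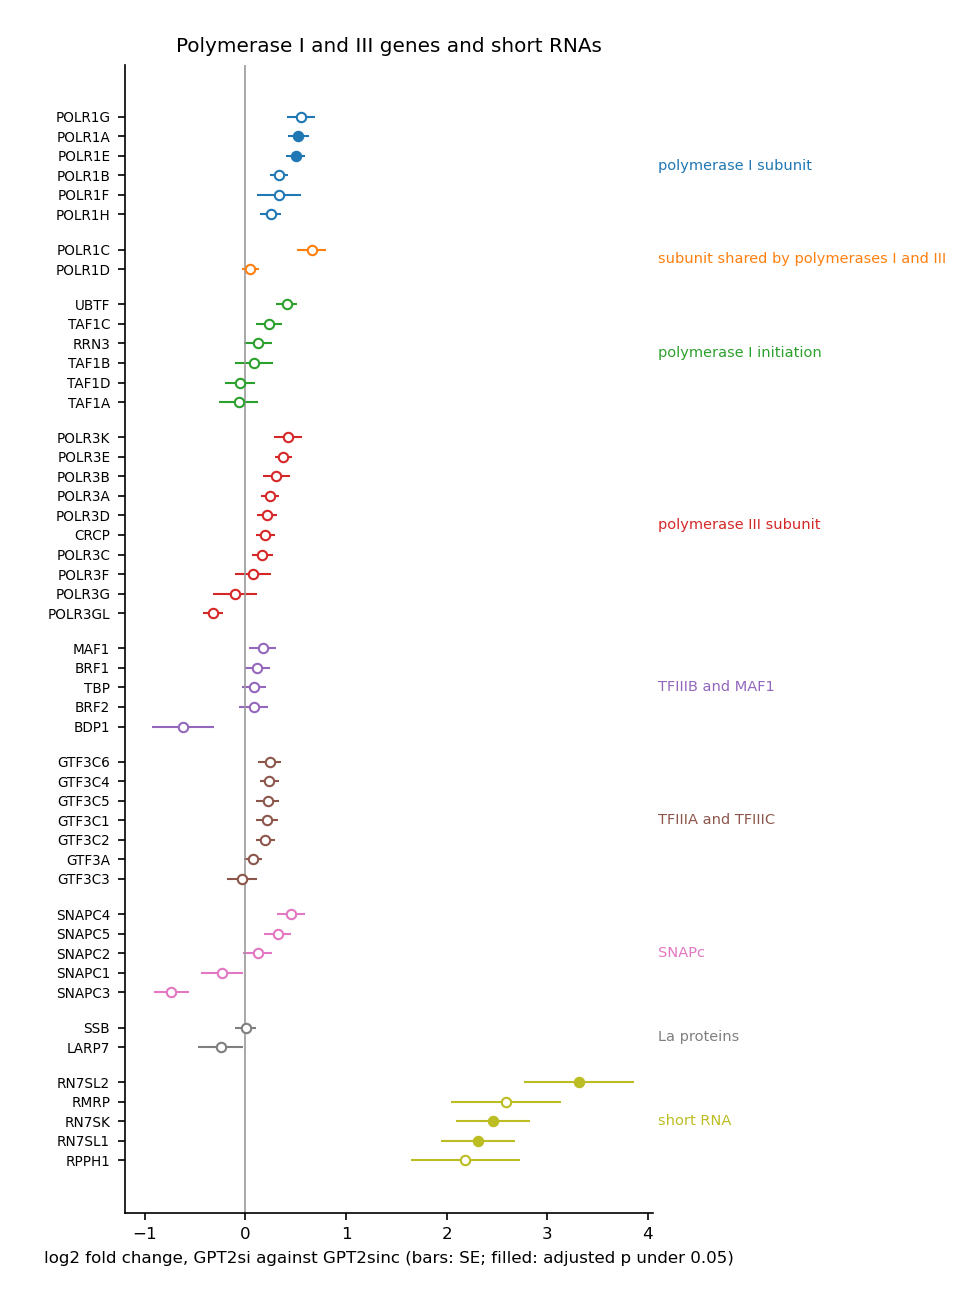
Log2 fold change of GPT2si against GPT2sinc for the 43 protein genes and the 5 short RNAs, ordered by role. Bars are standard errors, and filled points passed the edgeR test after adjustment. Filled points are POLR1A, POLR1E, RN7SL1, RN7SL2 and RN7SK, and each of the 6 polymerase I subunits lies above 0.

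Among the protein groups, the subunits that belong to polymerase I alone had the highest median fold change, 0.42, although larger single differences lay in other groups. All 6 had a positive fold change (48% of all tested genes did), and 2 passed the test (0.576% of all were called higher). Of the 6, 5 had an unadjusted p under 0.05, where 10.3% of all tested genes were higher. In 5 the groups did not overlap, where 14.9% of all tested genes were higher. POLR1A, the largest subunit, which holds part of the active site, had 5580, 6963 and 6285 counts in GPT2sinc 1 to 3 and 9672, 8513 and 8530 in GPT2si 1 to 3. It rose from 138.6 ± 15.0 to 199.3 ± 16.7 CPM (log2 fold change 0.52, SE 0.10; edgeR adjusted p = 0.0476). POLR1E, which pairs with POLR1G in a module found in polymerase I only, had 1862, 2172 and 1965 counts against 3061, 2578 and 2744. It rose from 44.2 ± 3.20 to 62.4 ± 3.24 CPM (0.50, SE 0.10; edgeR adjusted p = 0.0468). For both genes the lowest GPT2si library was above the highest GPT2sinc library.

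Both calls lie just under the threshold and were lost in most fits with 1 library left out. POLR1A had an adjusted p of 0.234, 0.168, 0.141, 0.172 and 0.0533 without GPT2sinc 1, 2 or 3, GPT2si 1 or GPT2si 3, and of 0.0262 without GPT2si 2. POLR1E had 0.234, 0.176, 0.147, 0.174 and 0.0603 in the same fits and 0.0205 without GPT2si 2. Without GPT2si 2 the number of protein genes called higher was 6 (14%, against 2.15% of all genes), and without any other single library it was 0. Calls over all genes fell as well. The share called higher was 0.0173%, 0%, 0.00573% and 0.00573% without GPT2sinc 1, 2 or 3 or GPT2si 1. Without GPT2si 3 it was 0.293%. The loss of calls was thus not particular to these proteins. The fold change of POLR1A stayed between 0.44 and 0.58 and that of POLR1E between 0.44 and 0.54.

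The remaining polymerase I subunits did not pass the test. POLR1G, the partner of POLR1E, had 603, 697 and 770 counts against 1253, 850 and 932 and a log2 fold change of 0.55 (SE 0.14; edgeR adjusted p = 0.0846). In GENCODE 29, 43.51% of its exon bases lie opposite ERCC1, and no source used here says whether the counting used strand, so its value is uncertain. POLR1B, the second-largest subunit, had 0.33 (SE 0.09; edgeR adjusted p = 0.0923), and POLR1H, a small subunit that acts in cleavage of the nascent RNA, had 0.25 (SE 0.11). Of the exon bases of POLR1H, 24.51% lie opposite another gene, so its value is uncertain too. POLR1F, a subunit of the stalk, had 0.33 (SE 0.22), with 146, 122 and 179 counts against 221, 126 and 221 and overlapping groups.

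POLR1C and POLR1D form a pair on which both polymerase I and polymerase III are assembled, and they differed from each other in size of change. POLR1C had 698, 926 and 922 counts against 1589, 1223 and 1184 and the highest fold change among the protein genes, 0.66 (SE 0.14; edgeR adjusted p = 0.0599), without overlap. POLR1D had 5091, 5281 and 5129 counts against 5756, 4968 and 5082 and a fold change of 0.05 (SE 0.08), with overlap. The difference between the pair was not tested.

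Of the 6 initiation factors of polymerase I, edgeR and limma-voom called 0 and DESeq2 called 1, and 1 had an unadjusted p under 0.05; the median fold change was 0.10. That gene was UBTF, which binds along the ribosomal RNA repeat and keeps it open. It had 8308, 10047 and 9347 counts against 12837, 11954 and 11414 and went from 204 ± 19.9 to 270.8 ± 31.1 CPM (0.41, SE 0.11; edgeR adjusted p = 0.0934), without overlap. RRN3, the factor that makes polymerase I competent to start, had 1076, 1083 and 1054 counts against 1424, 792 and 1307 and a fold change of 0.12 (SE 0.14). Here GPT2si 2 lay below all other libraries. TAF1A, TAF1B, TAF1C and TAF1D, which join TBP in the selectivity factor SL1, had fold changes from −0.06 to 0.23, and the groups overlapped in each.

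**Figure D4:**
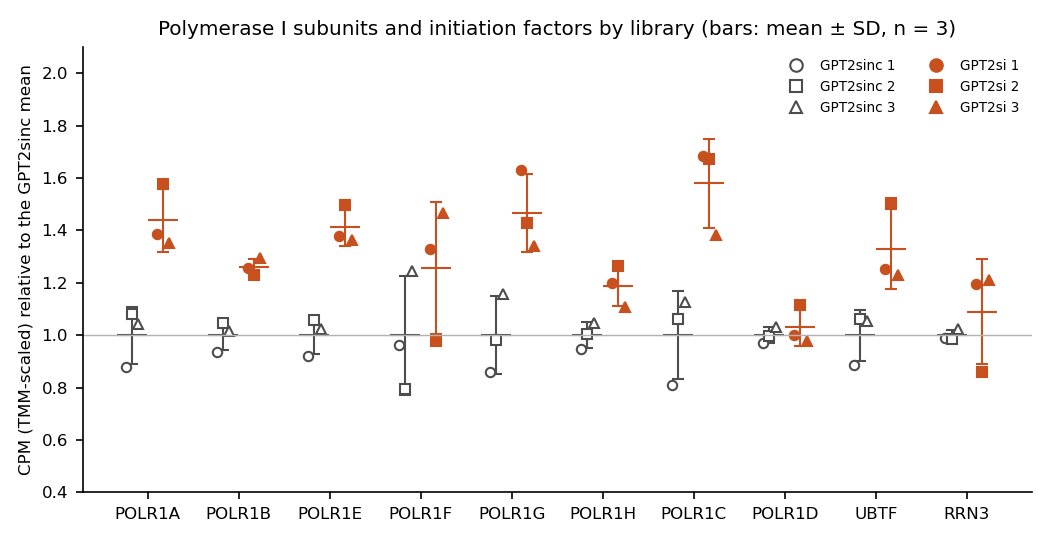
CPM in each library divided by the mean of the GPT2sinc libraries, for the polymerase I subunits, the pair shared with polymerase III, UBTF and RRN3. Bars give the mean ± SD of 3 libraries. The groups do not overlap in POLR1A, POLR1B, POLR1E, POLR1G, POLR1H, POLR1C and UBTF, and they overlap in POLR1F, POLR1D and RRN3.

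Polymerase III subunits had smaller fold changes, mostly positive, and 0 of the 10 was called by edgeR or limma-voom (DESeq2 called 1 higher). The median was 0.21. At an unadjusted p under 0.05, 4 were higher and 1 lower, where the shares of all tested genes were 10.3% and 9.27%. Without overlap, 7 were higher and 1 lower, against 14.9% and 13.2% of all tested genes. POLR3E had 2302, 2493 and 2361 counts against 3528, 2673 and 3016, a log2 fold change of 0.37 (SE 0.09; edgeR adjusted p = 0.0687). POLR3K, the subunit for RNA cleavage and termination, had 738, 840 and 913 against 1237, 1082 and 972 (0.42, SE 0.14). The pair of largest subunits, which form the active site, had 0.24 (SE 0.09, POLR3A) and 0.31 (SE 0.13, POLR3B). The other subunits with a positive value, POLR3C, POLR3D, POLR3F and CRCP, ran from 0.07 to 0.21.

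POLR3G and POLR3GL are alternative subunits at the same place in the enzyme, the former typical of stem cells and tumors and the latter of most tissues. POLR3GL was the more abundant here: per kilobase of exon, its level was 19.7 CPM with GPT2sinc and 15.8 CPM with GPT2si, against 0.686 and 0.637 CPM for POLR3G. POLR3GL had 1581, 1816 and 1433 counts against 1397, 1126 and 1294 and went from 35.5 ± 3.21 to 28.4 ± 0.554 CPM, the reverse of most other subunits (−0.32, SE 0.10; edgeR adjusted p = 0.136). Its groups did not overlap. POLR3G had 152, 111 and 112 counts against 122, 80 and 146 (−0.11, SE 0.22; edgeR adjusted p = 0.825). The share of POLR3G in the counts of the pair was 7.26 ± 1.51% with GPT2sinc and 8.27 ± 1.77% with GPT2si (two-sided exact permutation test, p = 0.5; the smallest p that 3 against 3 libraries allow is 0.1). POLR3G, the less abundant of the pair, has no firm direction: its fold change was 0.09 with offsets for GC content and transcript length, 0.05 without GPT2sinc 1 and 0.01 without GPT2si 2.

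TFIIIB, which places polymerase III at the start site, and its regulator had no called member by edgeR, DESeq2 or limma-voom, and 0 of 5 had an unadjusted p under 0.05 (median 0.08). BRF1, its subunit at most polymerase III genes, had 2263, 2575 and 2417 counts against 2709, 2678 and 2326 (0.11, SE 0.12; edgeR adjusted p = 0.638). BRF2, its counterpart at U6-type promoters, had 529, 631 and 590 against 644, 623 and 552 (0.08, SE 0.14; edgeR adjusted p = 0.791), and 59.02% of its exon bases lie opposite ADGRA2. The share of BRF2 in the counts of the pair was 19.4 ± 0.408% and 19.1 ± 0.185% (two-sided exact permutation test, p = 0.3). TBP, which all 3 nuclear polymerases use, had 473, 465 and 449 counts against 527, 437 and 489 (0.08, SE 0.12; edgeR adjusted p = 0.734). MAF1, the repressor of polymerase III, had 4131, 4756 and 4663 against 5209, 5340 and 4401 (0.17, SE 0.13; edgeR adjusted p = 0.508). Without GPT2si 2 the fold changes of BRF1, BRF2 and MAF1 were −0.04, −0.06 and −0.01, so that none of these has a firm direction. BDP1, the third TFIIIB protein, had the largest SE among the protein genes, with 1490, 901 and 747 counts against 714, 354 and 983 (−0.62, SE 0.31), and overlapped.

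TFIIIA and TFIIIC bind the promoter before TFIIIB does. Of their 7 genes edgeR, DESeq2 and limma-voom called 0, and 1 had an unadjusted p under 0.05: GTF3C4, with 3042, 3455 and 3007 counts against 4469, 2863 and 3879 (0.24, SE 0.10), overlapping. The median was 0.21. GTF3C1, GTF3C2, GTF3C5 and GTF3C6 lay between 0.20 and 0.24, close to one another, and GTF3C3 at −0.03. GTF3A, the factor that binds 5S rRNA genes, had 0.07 (SE 0.09).

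SNAPc binds the promoters of the U6, 7SK, RNase P and RNase MRP genes, and its 5 subunits had fold changes of both signs. SNAPC3 had 2303, 2117 and 1873 counts against 1553, 769 and 1486 and went from 46.3 ± 3.63 to 27.7 ± 7.00 CPM, the lowest fold change among the protein genes (−0.74, SE 0.17; edgeR adjusted p = 0.0727). Without GPT2si 2, the library with the lowest value, it was −0.56 and passed the edgeR test (adjusted p = 0.0169). SNAPC4, the largest subunit, had 931, 1180 and 1010 counts against 1440, 1464 and 1288 (0.45, SE 0.14; edgeR adjusted p = 0.13). SNAPC5 had 0.32 (SE 0.14), with 23.24% of its exon bases inside another gene on the same strand. In these 3 the groups did not overlap, and in SNAPC1 (−0.23) and SNAPC2 (0.12) they did. Of the 5, edgeR and limma-voom called 0, and DESeq2 called SNAPC4 higher and SNAPC3 lower. The La proteins, which bind the U-rich ends of new polymerase III transcripts, had fold changes of 0.00 (SSB) and −0.25 (LARP7, the partner of 7SK), both with overlap.

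Levels per kilobase of exon spanned a wide range among the 43 protein genes. In the GPT2sinc libraries they ran from 0.686 CPM for POLR3G, 0.827 for POLR1F and 0.836 for TAF1A to 32.4 for GTF3C5 and 42.0 for MAF1. POLR1E was at 17.6 CPM per kilobase, POLR1A at 10.3 and POLR1B at 8.52. Such levels are relative, since merged exons count every annotated isoform.

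GC content moved with the members' values in some libraries. The fold changes of the 43 proteins correlated with the GC content of the longest transcript (Pearson r = 0.432, Spearman rho = 0.46, across genes, which are not independent replicates). Over 16825 tested genes these values were 0.135 and 0.20. Deviations from the mean of 6 libraries correlated with GC content by r = −0.579 in GPT2sinc 1, 0.764 in GPT2si 2 and −0.514 in GPT2si 3, and by −0.126 to −0.011 in the other 3. These points share the libraries and their depth. SNAPC3 (40.6% GC), BDP1 (39.0%) and RRN3 (41.5%), whose GPT2si 2 values were low, are among the members with low GC content. With offsets for GC content and transcript length in each library, edgeR called 11 of the 43 proteins higher (25.6%, against 7.1% of all genes) and 2 lower (4.65%, against 5.78%). POLR1A (0.56) and POLR1E (0.44) were among them.

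**Figure D5:**
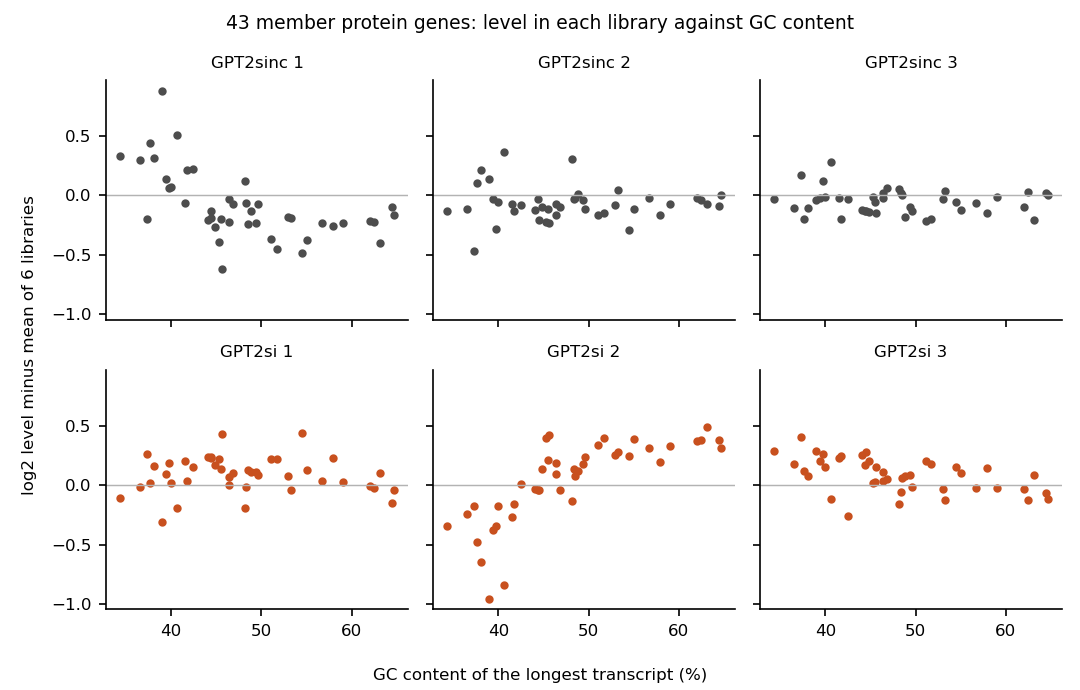
Log2 level of each of the 43 protein genes relative to its mean over the 6 libraries, against the GC content of its longest transcript in percent, with 1 panel per library. Values fall with GC content in GPT2sinc 1 (r = −0.579) and rise with it in GPT2si 2 (r = 0.764).

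Genes around the machinery were described from lists. Of 6 further subunits of polymerases I and III, most of them shared with polymerase II, edgeR and limma-voom called 0 and DESeq2 called 1, and 4 had an unadjusted p under 0.05. POLR2L (0.38, SE 0.11), POLR2F (0.37, SE 0.12) and POLR2K (0.31) were among them. Of 14 partners of polymerase I in the nucleolus, 1 passed the edgeR test. This was MYBBP1A, a nucleolar protein, with 3012, 3858 and 3374 counts against 5796, 5354 and 4689 (0.65, SE 0.13; edgeR adjusted p = 0.047), without overlap. Without GPT2sinc 1, 2 or 3 or GPT2si 1 its adjusted p was 0.234, 0.156, 0.145 and 0.172, and without GPT2si 2 or GPT2si 3 it was 0.0266 and 0.0408. CAVIN1, known both for caveolae and for release of polymerase I, had 0.53 (SE 0.11), and NOLC1, a chaperone of small nucleolar RNA particles, had 0.35 (SE 0.08). The most abundant nucleolar genes of the list, NPM1 and NCL, had −0.03 and 0.01. The median of the list was 0.08, and 5 of its genes had an unadjusted p under 0.05.

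The proteins that bind the short RNAs did not show the size of difference seen in the RNAs. Of 16 proteins of RNase P, RNase MRP and the signal recognition particle, edgeR, DESeq2 and limma-voom called 0, 4 had an unadjusted p under 0.05, and fold changes ran from −0.15 to 0.36. The highest were RPP21 and RPP40 of RNase P (both 0.36), followed by RPP25 (0.31). Of the 6 proteins of the signal recognition particle, SRP54 and SRP9 both had −0.15, and SRP14, SRP19, SRP68 and SRP72 ran from 0.02 to 0.10. In the 7SK particle and P-TEFb, the same tools called 0 of 6 genes and 0 had an unadjusted p under 0.05 (median −0.02, from −0.22 for CCNT2 to 0.27 for MEPCE).

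Among 14 regulators of both enzymes, edgeR and limma-voom called 0, DESeq2 called 2 higher, and 3 had an unadjusted p under 0.05 (median 0.03). MYC, a transcription factor that raises the output of both polymerases, had 3386, 3786 and 3675 counts against 5206, 4313 and 4720 (0.41, SE 0.09; edgeR adjusted p = 0.0586), without overlap. CCND1, cyclin D1, had 0.29 (SE 0.08) and RPTOR, the scaffold of mTOR complex 1, had 0.26 (SE 0.11). RB1, which restrains both enzymes, had −0.23, with overlap.

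Promoters were searched for CACGTG, the E-box letters that MYC and other factors can bind; the motif reads the same on both strands. RefSeq windows (GRCh38.p14) from 250 bases before to 50 after the start were found for 36 of the 43 proteins, and 8 held the motif (22.2%, against 8.77% of 27305 genes). It was found in 7 of 23 polymerase III genes and in 1 of 13 polymerase I or shared genes. The 4 with an unadjusted p under 0.05 are printed with the motif in capitals. Their fold changes were all positive, but so were those of 34 of the 43 proteins. At this threshold 14 proteins were higher and 2 lower, so nothing is read from the sign of the 4. POLR1A, POLR1E and UBTF are not among the 8.
GTF3C4: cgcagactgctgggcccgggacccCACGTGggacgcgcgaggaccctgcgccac
POLR3A: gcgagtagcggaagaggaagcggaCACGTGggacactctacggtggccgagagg
POLR3E: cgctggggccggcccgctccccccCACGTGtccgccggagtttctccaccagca
POLR1G: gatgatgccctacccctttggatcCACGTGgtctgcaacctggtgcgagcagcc
The windows lie at chr9:132669976-132670029 (GTF3C4, plus strand), chr10:78029521-78029574 (POLR3A, minus strand), chr16:22297384-22297437 (POLR3E, plus strand) and chr19:45406608-45406661 (POLR1G, plus strand). The motif begins 35, 35, 1 and 12 bases before the annotated start. The other 4 with the motif, POLR3C, GTF3C2, SSB and GTF3C6, had fold changes of 0.17, 0.20, 0.00 and 0.24. A match describes letters and not binding, and the windows were not tested against the fold changes.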

How the data were processed

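Gene counts in 6 RNA-seq libraries of A2780 cells were used, 3 labelled GPT2sinc and 3 labelled GPT2si; group and replicate number were read from each title. RNA was selected with oligo(dT) beads and copied with dUTP in the second strand, per the labels' protocols. The authors deposited raw counts, 1 whole number per Ensembl gene and library. CASAVA and StringTie are named without version or role, per the submitters' processing notes; for the aligner, the counter, its strand setting and the genome build: not given in the sources used here. All columns were mapped, and 0 were left out.

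Symbols were found for 60295 of 60564 rows, and 58457 rows occur in GENCODE 29, used for positions, exon length, GC content and transcripts. The test was edgeR's quasi-likelihood F test (edgeR 4.0.16, R 4.3.3) with TMM factors, filterByExpr and group as the only term, with Benjamini-Hochberg adjustment over 17006 genes and a threshold of 0.05. SEs were derived from the F statistic. Paralog shares were compared by exact permutation over libraries (scipy 1.17.1). Promoter windows come from RefSeq.

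The members and lists were chosen with earlier results of these data known. Members past the test, GPT2, POLR3G, POLR3GL, BRF1, BRF2, MAF1, TBP and the short RNAs were given with counts; other members with an unadjusted p under 0.05 with fold change and SE; the rest by range; of each other list, genes past the test and up to 3 with the smallest p. Further values of members and of NPM1, NCL, RB1, the signal recognition particle proteins, CCNT2 and MEPCE were added after they were seen. So were those of BCYRN1, RNU6-1, RNU6-2, RNU6-7, RNU6-8, RNU6-9, RN7SL3, RNU6ATAC, VTRNA1-1 and VTRNA1-3. Some genes and sequences are not reported here.

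Alternatives were other scaling in edgeR (DESeq2 size factors, upper-quartile factors), no filter, at least 1 CPM in 3 libraries, limma-voom (limma 3.58.1), the Wald test of DESeq2 1.42.0, a block by replicate number, loess offsets (span 0.5) for GC content and transcript length (98.9% of tested genes), both together, and leaving out each library. Summing gene copies was added after the data were seen. In simulated counts for this comparison over 17006 genes, the test recovered 30.7% of 1.5-fold, 81.3% of 2-fold and 100% of 4-fold changes, and 6.56% of its calls were false. Only genes with a mean of at least 1 CPM were changed, so these shares do not cover most of the short RNAs. Counts were drawn without a GC trend or a library that stands apart, so false calls from these are not covered. No pair of libraries within a group was a duplicate (chi-square per degree of freedom at least 7.71).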

Additional observations from a re-analysis of the deposited data

How the results depend on the processing

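The number of protein members called higher was 2; it was 0 with DESeq2 size factors in edgeR and with no filter, 8 with the DESeq2 test, 1 with limma-voom, 11 with GC and length offsets, 10 with these and the replicate block, and 0 to 6 with 1 library left out. The number called lower was 0; it was 1 with DESeq2, 2 with the offsets, 2 with offsets and block, and 0 to 1 with 1 library left out. The number of short RNAs called was 3; it was 1 with no filter, 1 with at least 1 CPM in 3 libraries (which left 1 to test), 5 with the offsets, 0 with copies summed, and 0 to 3 with 1 library left out. DESeq2 called 2 and gave RN7SL2, RMRP and RPPH1 no adjusted p. Those 3 passed the main filter only through the GPT2si libraries, so nothing is read from the number of short RNAs called. Over all genes, 98 were called higher and 143 lower. These counts were 61 higher with DESeq2 size factors, 17 and 27 with no filter, 558 and 488 with DESeq2, 1194 and 973 with the offsets, 1012 and 805 with offsets and block, and 0 to 377 and 1 to 459 with 1 library left out. The median fold change of the proteins was 0.20 and ran from 0.13 (without GPT2si 2) to 0.21 with 1 library left out. Signs changed for POLR3G (0.091 with the offsets, 0.088 with offsets and block, −0.30 to 0.045 with 1 library left out) and, without GPT2si 2, for BRF1 (−0.039, otherwise up to 0.20), BRF2 (−0.061, otherwise up to 0.16) and MAF1 (−0.0091, otherwise up to 0.27). All 21 members with an unadjusted p under 0.05 kept their direction in each alternative that tested them. Nothing is read from this for RN7SL2, RMRP and RPPH1, because of the filter. The cause of these changes was not tested.

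Same-numbered libraries had deviations that correlated by 0.081, 0.115 and −0.186, and not every library correlated best with its own number. This does not settle whether the replicate numbers pair the libraries, because levels also moved with GC content in some libraries. With a replicate block, 3 proteins were called higher and 1 lower, 4 short RNAs higher, and 252 genes higher and 306 lower over all. The limit that the low-count filter sets on the short RNAs holds here too. At this depth the 5 short RNAs rest on 1 to 118 counts a library.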
